A study of Gallus gallus with 12 samples.

Results

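The genes described here are the cytosolic ribosomal proteins of chicken breast muscle. They were chosen by name: a transcript cluster, which is the array's probe set for 1 gene, was taken when its single platform symbol began with RPL or RPS and a digit or was RPLP0, RPLP1, RPLP2 or RPSA, and S6 kinases were left out. This gave 54 genes out of 11528 with a single symbol. By symbol alone 35 were assigned to the large subunit, RPL7L1 included, and 18 to the small subunit. The last was RPS19BP1, whose symbol fits the rule but which encodes a binding partner of RPS19. Counts over all the genes include RPS19BP1. RPLP0, RPLP2, RPSA and RPS27L had no transcript cluster with a single symbol of that name, and RPL11 and RPL36 appeared only on 3 clusters that also carried another gene's symbol, so none of these was used. For the 8 genes with more than 1 cluster, the brightest over the 12 arrays was used.

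RNA came from the breast muscle Pectoralis major of chickens of the Ross PM3 strain, 36 days old. One group ate normal feed, one ate feed in which P (phosphorus) and Ca (calcium) were restricted, and one ate that restricted feed with phytase added, the enzyme that frees phosphate bound in plant phytate. The design asked which pathways of the muscle the diets might affect. Each of the 12 Affymetrix arrays held a pool of 4 birds, with 4 arrays per diet, and the labels used here give no sex, no mineral content and no rule for pooling, so every p-value rests on how these pools varied.

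A ribosome is built from ribosomal RNA and one copy of most ribosomal proteins in each subunit. The small subunit reads the messenger RNA, and the large subunit joins amino acids and feeds the new protein out through a tunnel. In animals most of these messenger RNAs carry a terminal oligopyrimidine start, through which growth signalling by mTOR controls their translation, and in growing skeletal muscle ribosome number is known as one limit on protein synthesis.

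The label of the tissue was checked against marker genes. Of 18 listed fast skeletal muscle markers 8 had a cluster, and 6 of the 7 that were bright enough to be tested had a mean log2 level above 8, the highest at 13.6. Of the 7 liver markers 1 was bright enough, and their mean level was 2.09. No 2 arrays held the same values. A set of 4 arrays stood apart by HINTW, a gene of the female-specific W chromosome of birds: restricted replicates 1 and 2 and phytase replicates 1 and 4 lay between 7.57 and 8.08, and the other 8 arrays, all 4 normal ones included, between 2.27 and 2.76. Results are therefore also given without those 4 arrays, which leaves 2 arrays each for the restricted and the phytase diet.

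The ribosomal proteins were bright. The 53 genes above the brightness limit, a mean log2 level of 2.67, had a median mean level of 8.46, and 38 of them lay above 8, against 4.79% of all 12482 transcript clusters tested. Means ran from 3.08 for RPL35A to 10.34 for RPS2. RPL26L1, a paralog of the large-subunit protein RPL26, was the 1 gene below the limit, with values from 1.92 to 2.44 and a mean of 2.17. These are levels of different probes, so their order is not an order of transcript amounts. In RefSeq's gene table for GRCg7b all 54 were found by gene identifier, and RPL17, RPL37, RPS6 and RPS23 lie on chromosome Z.

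Their levels varied little between arrays. The median SD over the 12 arrays was 0.156 on the log2 scale, against 0.248 for all clusters tested. It was 0.237 for the 2677 other clusters in the same range of brightness. Those were dimmer as a set, with a median mean level of 6.54 against 8.46, and 15.3% of them above 8 against 71.7%. For 21 of the 53 the lowest and the highest array differed by less than 0.5. The same held for 1026 of the 12482 clusters tested and for 304 of the 2677. RPL12, a protein at the base of the ribosomal stalk, was the steadiest, from 8.72 to 8.97 with an SD of 0.083. RPL3, a protein close to the site of peptide bond formation, varied the most among them, from 6.96 to 8.22 with an SD of 0.352.

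No ribosomal protein differed between diets in limma at an adjusted p under 0.05, and neither did any of the 12482 clusters (0% called in each of the 3 contrasts and across the diets). The smallest adjusted p among the 53 in limma was 0.907 for restricted minus normal, 0.519 for phytase minus restricted, 0.984 for phytase minus normal and 0.800 across the 3 diets. At an unadjusted p under 0.05 the counts were 0 of 53 for restricted minus normal (background 5.3%), 2 of 53 for phytase minus restricted (background 8.83%) and 4 of 53 for phytase minus normal (background 4.32%). Across the 3 diets 1 of 53 did so, RPL38 (background 5.97%). Read against these backgrounds, the counts are no result about the ribosomal proteins.

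The size of the differences was bounded more tightly than for most clusters. On the log2 scale the median SE of the 53 differences was 0.12, against 0.17 for all clusters. The 95% interval lay within 0.5 of 0 in both directions for 48 of 53 in restricted minus normal, 46 of 53 in phytase minus restricted and 46 of 53 in phytase minus normal, against 48.2%, 43.3% and 49.2% of all clusters. The interval ends reached -0.61 and 0.76 in restricted minus normal, -0.76 and 0.48 in phytase minus restricted, and -0.75 and 0.47 in phytase minus normal.

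**Figure D1:**
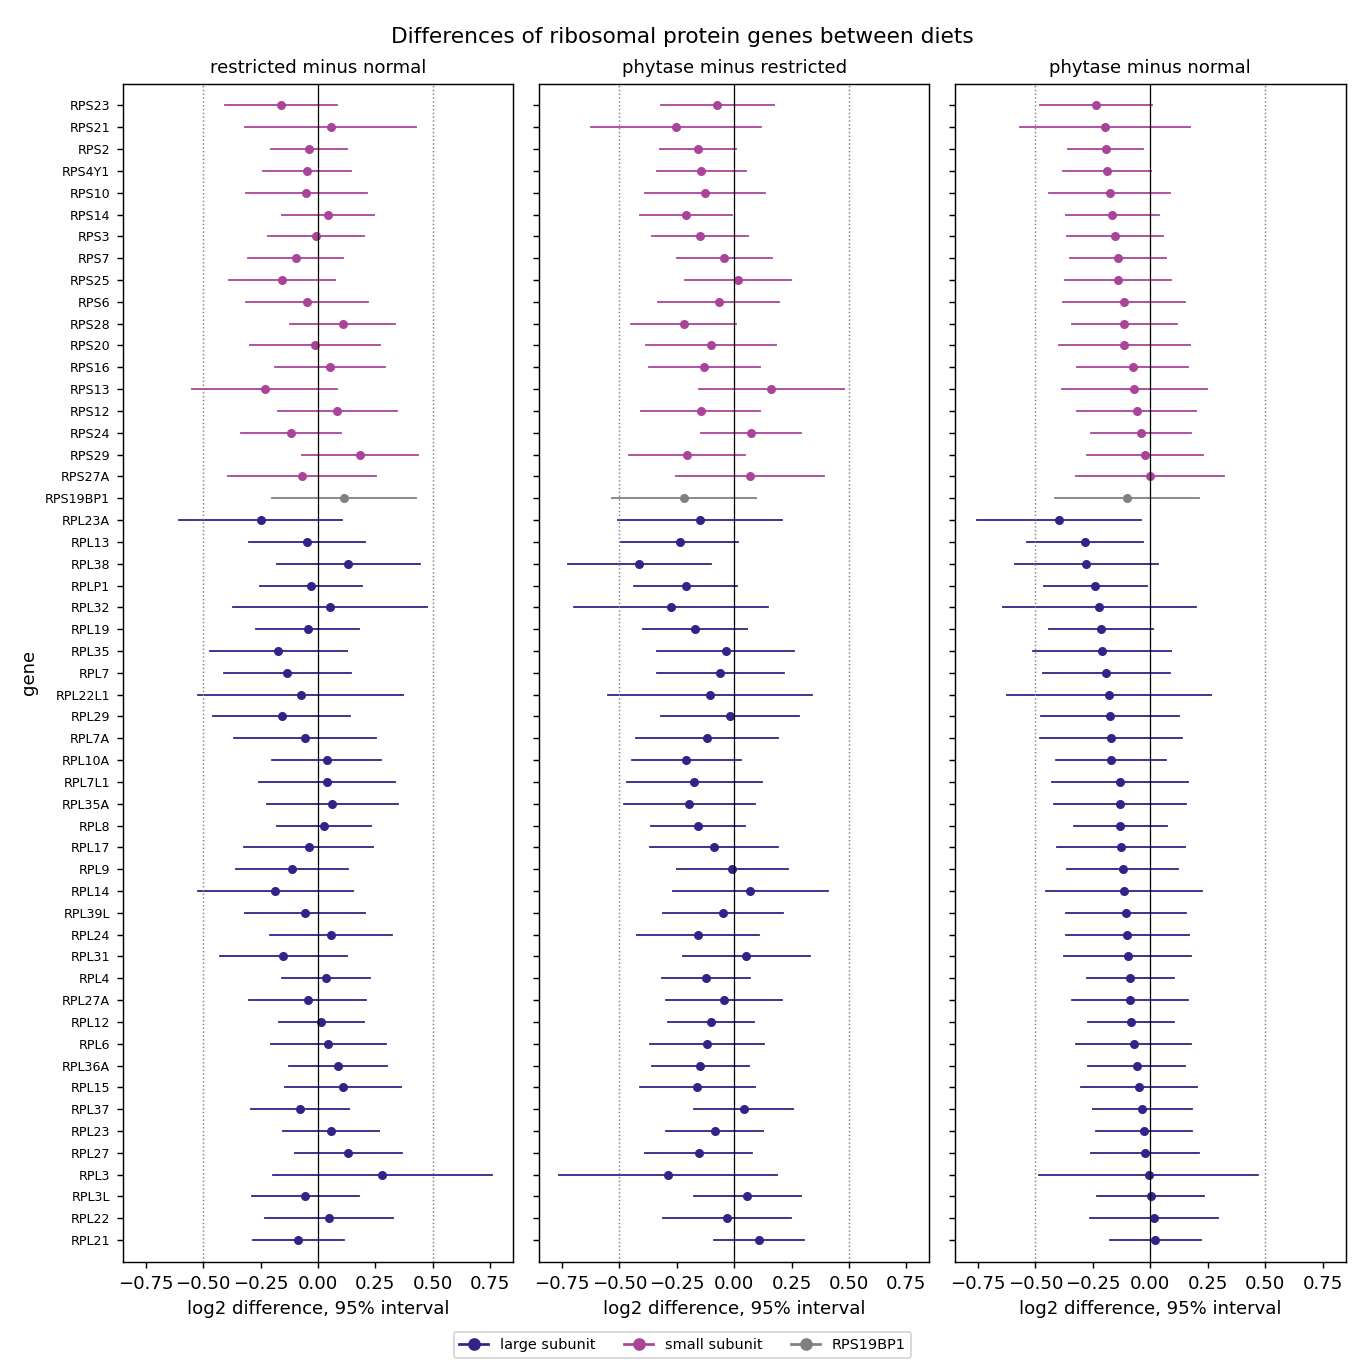
Log2 difference (horizontal axis) of each of the 53 tested genes (vertical axis) in 3 diet contrasts, with 95% intervals from limma; large-subunit genes in blue, small-subunit genes in purple, RPS19BP1 in grey, and dotted lines at -0.5 and 0.5. In phytase minus normal 49 of 53 points lie below 0, while in restricted minus normal 30 of 53 do.

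The restricted diet was set against the normal diet to describe muscle short of phosphorus and calcium. Of the 53 genes, 30 had the lower mean in restricted muscle and 23 the higher, against 50.9% lower among all clusters. Their median difference was -0.04, beside -0.04 for the other clusters of like brightness, of which 58.6% were lower. The median turned to 0.01 without normal replicate 4 and to 0.01 without restricted replicate 1. Without restricted replicate 2 it was -0.08, with 40 genes lower and 13 higher. Without the 4 arrays with high HINTW it was -0.05, with 35 lower and 18 higher. For no gene did the 4 restricted arrays lie wholly above or below the 4 normal arrays (background 2.32%). The 8 genes with the smallest p were RPS13, RPS29, RPL23A, RPS25, RPS23, RPL3, RPL35 and RPL27.

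RPS13, a small-subunit protein, was at 6.40, 6.21, 6.23 and 5.98 in normal muscle and at 6.03, 6.30, 5.63 and 5.93 in restricted muscle. The groups overlapped, with restricted replicate 2 above 3 of the normal arrays, and the difference was -0.23 ± 0.15 (SE; limma adjusted p = 0.907). RPL3 was at 7.70, 7.72, 7.28 and 7.34 in normal muscle and at 7.20, 8.22, 7.76 and 7.98 in restricted muscle. Restricted replicate 1 was the lowest and the other 3 restricted arrays were the highest of the 8, and the difference was 0.28 ± 0.22 (SE; limma adjusted p = 0.921). RPS29, a small zinc-binding protein of the small subunit, averaged 9.16 ± 0.17 and 9.34 ± 0.15 in normal and restricted muscle (SD, n = 4), and RPL27 of the large subunit averaged 8.14 ± 0.14 and 8.27 ± 0.17 (SD, n = 4). The remaining 4 had lower means in restricted muscle: RPL23A and RPL35, both near the exit of the peptide tunnel, by -0.25 and -0.17, and RPS25 and RPS23 of the small subunit by -0.16 each. RPS23 sits at the decoding centre, where codon and transfer RNA meet. Its gene lies on chromosome Z, and it averaged 8.535 in the 4 arrays with high HINTW and 8.715 in the other 8.

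Phytase was added to the restricted diet in the second contrast. Here 44 of the 53 genes had the lower mean with phytase and 9 the higher, against 51.2% lower among all clusters, and the median difference was -0.12 (8.14% lower), against -0.01 for all clusters and for clusters of like brightness. For 3 genes the 4 phytase arrays lay wholly below the 4 restricted arrays, RPS14, RPS28 and RPL19 (background 2.03% lower without overlap). The count rested on a few arrays. Without restricted replicate 2 it was 36 lower and 16 higher with a median of -0.05, and without the 4 arrays with high HINTW it was 27 lower and 24 higher with a median of -0.03.

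RPL38, a small protein on the surface of the large subunit known in mice for skeletal patterning, had the smallest p. It was at 8.69, 9.26, 8.81 and 8.63 in restricted muscle and at 8.46, 8.42, 8.67 and 8.19 with phytase, beside 8.74, 8.53, 8.87 and 8.72 in normal muscle. Phytase replicate 3 overlapped the restricted arrays, restricted replicate 2 was the highest of all, and phytase minus restricted was -0.41 ± 0.15 (SE), a 1.33-fold lower level (limma adjusted p = 0.519). RPS14, a protein of the small subunit's platform known in humans for its loss in the 5q- syndrome, was at 8.67, 8.76, 8.72 and 8.60 in restricted muscle and at 8.39, 8.53, 8.42 and 8.57 with phytase. All 4 phytase arrays lay below all 4 restricted arrays, while the normal arrays at 8.63, 8.70, 8.49 and 8.75 overlapped both, and phytase minus restricted was -0.21 ± 0.09 (SE; limma adjusted p = 0.556).

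RPS28, a small protein near the messenger RNA exit, was at 6.48, 6.51, 6.42 and 6.35 in restricted muscle and at 6.14, 6.18, 6.31 and 6.25 with phytase. The groups did not overlap, and the difference was -0.22 ± 0.11 (SE; limma adjusted p = 0.567). RPL19, which helps to bridge the subunits, was at 8.69, 8.95, 8.65 and 8.71 in restricted muscle and at 8.59, 8.56, 8.60 and 8.57 with phytase. Its 4 phytase arrays were nearly equal and below every restricted array, with a difference of -0.17 ± 0.10 (SE; limma adjusted p = 0.650). The others among the 8 smallest p were RPS2, RPL13, RPLP1, RPL10A and RPS29, with differences of -0.16, -0.24, -0.21, -0.21 and -0.20 in that order. RPL10A forms the mobile stalk beside the transfer RNA exit site. The 9 genes with a higher mean with phytase were RPS13, RPL21, RPS24, RPL14, RPS27A, RPL3L, RPL31, RPL37 and RPS25, and the largest difference among them was 0.16, in RPS13.

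**Figure D2:**
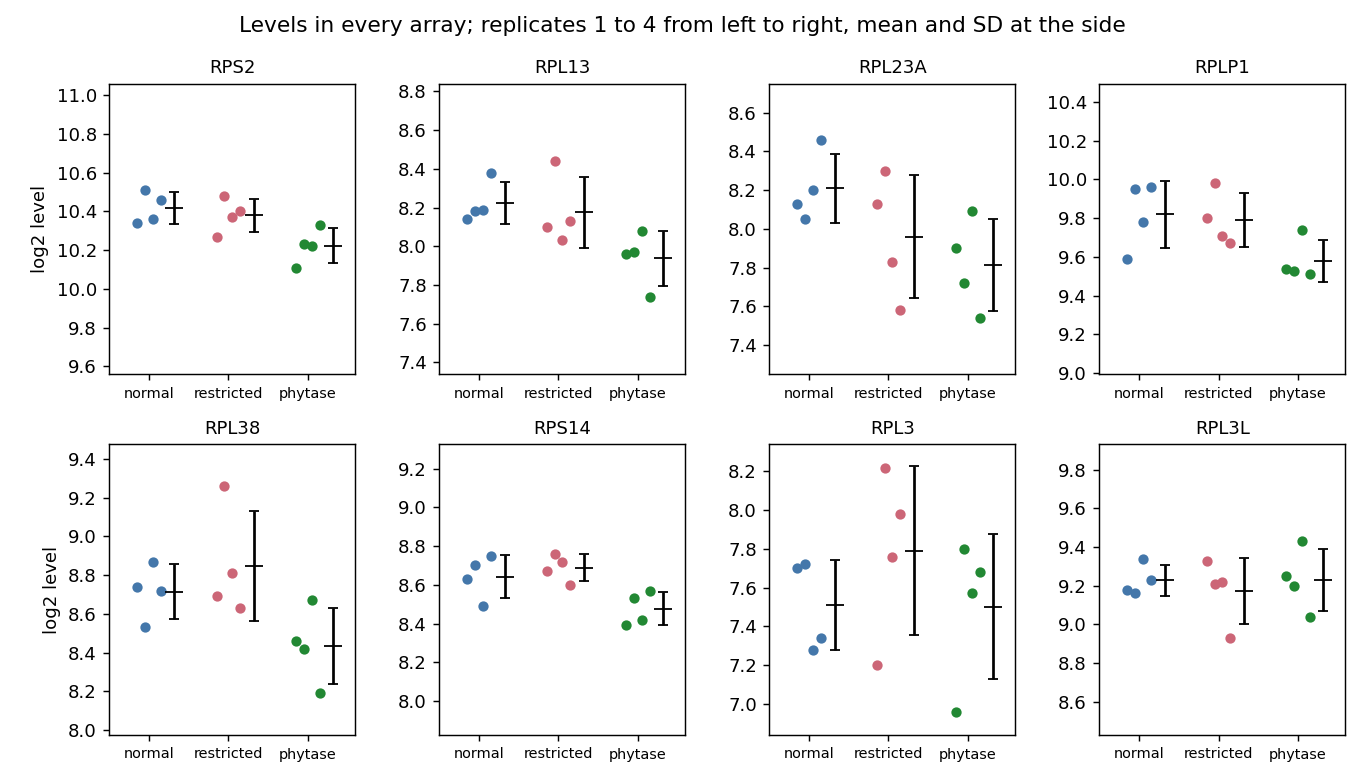
Log2 level (vertical axis) of 8 ribosomal protein genes in each of the 4 arrays per diet (horizontal axis), with mean and SD at the side; every panel spans the same 1.5 log2 units. In RPS14 the phytase arrays, 8.39 to 8.57, lie below the restricted arrays, 8.60 to 8.76, while in RPL3L the 3 diets overlap.

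Phytase and normal diets were compared last. Of the 53 genes 49 had the lower mean with phytase, 3 the higher, and RPS27A, which is made as a fusion of ubiquitin with a small-subunit protein, had the same mean of 7.15 in both. Among all clusters 49.9% were lower. The median difference was -0.12 (7.66% lower), against 0.00 for all clusters and -0.02 for clusters of like brightness, of which 54.2% were lower. For RPS2, RPL13 and RPS4Y1 the 4 phytase arrays lay wholly below the 4 normal arrays (background 1.51% lower without overlap). The 3 genes with a higher mean were RPL21, RPL22 and RPL3L, by at most 0.02. Without the 4 arrays with high HINTW, which leaves 2 phytase arrays against 4 normal ones, 42 were lower and 10 higher, with a median of -0.08 and 0 of 53 at an unadjusted p under 0.05.

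RPS2, a small-subunit protein at the messenger RNA entry, was at 10.34, 10.51, 10.36 and 10.46 in normal muscle, at 10.27, 10.48, 10.37 and 10.40 in restricted muscle and at 10.11, 10.23, 10.22 and 10.33 with phytase. The highest phytase array lay 0.01 below the lowest normal array, and phytase minus normal was -0.20 ± 0.08 (SE), a 1.14-fold lower level (limma adjusted p = 0.984). RPL13 of the large subunit was at 8.14, 8.18, 8.19 and 8.38 in normal muscle and at 7.96, 7.97, 8.08 and 7.74 with phytase. Phytase replicate 4 was the lowest, restricted arrays at 8.10, 8.44, 8.03 and 8.13 overlapped both other diets, and phytase minus normal was -0.28 ± 0.12 (SE; limma adjusted p = 0.984).

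RPL23A, at the tunnel exit, was at 8.13, 8.05, 8.20 and 8.46 in normal muscle, at 8.13, 8.30, 7.83 and 7.58 in restricted muscle and at 7.90, 7.72, 8.09 and 7.54 with phytase. Phytase replicate 3 overlapped the normal arrays, the restricted arrays spanned nearly the whole range, and phytase minus normal was -0.40 ± 0.17 (SE; limma adjusted p = 0.984). RPLP1, an acidic protein of the stalk that recruits elongation factors, was at 9.59, 9.95, 9.78 and 9.96 in normal muscle, at 9.80, 9.98, 9.71 and 9.67 in restricted muscle and at 9.54, 9.53, 9.74 and 9.51 with phytase. Phytase replicate 3 lay inside the normal range and the other 3 below it, and the difference was -0.24 ± 0.10 (SE; limma adjusted p = 0.984). The platform symbol RPS4Y1 stands for the chicken's RPS4 protein of the small subunit, which averaged 9.86 ± 0.10 in normal and 9.67 ± 0.06 in phytase muscle (SD, n = 4). RPS23, RPL19 and RPL38 completed the 8 smallest p, with differences of -0.23, -0.21 and -0.28. The Z-linked RPS23 had the lower mean in the 4 arrays with high HINTW, none of which is a normal array.

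The 14 ribosomal protein genes not described singly here are RPL4, RPL6, RPL8, RPL15, RPL24, RPL29 and RPL36A of the large subunit and RPS3, RPS7, RPS10, RPS12, RPS16, RPS20 and RPS21 of the small one. RPL4 lines the peptide tunnel, RPL8 reaches toward the site of peptide bond formation, and RPS3 sits at the messenger RNA entry. Their differences ran from -0.16 in RPL29 to 0.11 in RPL15 for restricted minus normal, from -0.25 in RPS21 to -0.02 in RPL29 for phytase minus restricted, and from -0.20 in RPS21 to -0.05 in RPL15 for phytase minus normal.

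The 3 contrasts share arrays, so they are not independent of each other: the low phytase arrays enter 2 of them, and the high restricted replicate 2 enters 2 of them.

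The subunits were set side by side, since cells make them in equal numbers. In restricted minus normal, 18 of 34 large-subunit genes and 12 of 18 small-subunit genes were lower, with medians of -0.04 in both. Without restricted replicate 2 these medians were -0.07 and -0.09, with 25 of 34 and 15 of 18 lower. Without the 4 arrays with high HINTW they were -0.05 and -0.07, with 22 of 34 and 13 of 18 lower. The large-subunit median was between 0.00 and 0.02 without normal replicate 2, normal replicate 4, restricted replicate 1 or restricted replicate 4. The small-subunit median was 0.00 without restricted replicate 1. In phytase minus restricted the counts were 29 of 34 and 14 of 18, with medians of -0.12 and -0.13. In phytase minus normal they were 31 of 34 and 17 of 18, with medians of -0.12 and -0.13. No test of the difference between subunits was made. Without restricted replicate 2 the medians of phytase minus restricted were -0.05 and -0.04. Without the 4 arrays with high HINTW, phytase minus restricted gave 18 of 34 lower in the large subunit and 8 lower and 8 higher of 18 in the small subunit.

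Array by array, the genes moved together. For each gene the mean over the 12 arrays was taken off, and the median of the 53 deviations was -0.01, 0.09, 0.00 and 0.12 in the normal arrays, -0.06, 0.22, -0.01 and -0.04 in the restricted arrays and -0.10, -0.07, 0.02 and -0.12 in the phytase arrays. Restricted replicate 2 stood highest: 51 of 53 genes lay above their own mean there, and 30 of 53 had their highest value there. Phytase replicates 1 and 4 stood lowest, each with 8 of 53 genes above their own mean, and held the lowest value of 14 and 15 genes. Of the phytase medians, that of replicate 3 lay within the range of the normal and of the restricted ones. Those of replicates 1, 2 and 4 lay below every normal and restricted median. Replicate 2 did so narrowly, at -0.066 against -0.058 in restricted replicate 1. For all clusters tested the same medians lay between -0.02 and 0.01. For the 2677 clusters of like brightness they ran from -0.11 to 0.07, and for the 57 mitochondrial ribosomal proteins from -0.12 to 0.17. Over the 12 arrays these medians had correlations of 0.66 and 0.75 with those of the ribosomal proteins. All these medians came from the same 12 RNA pools.

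**Figure D3:**
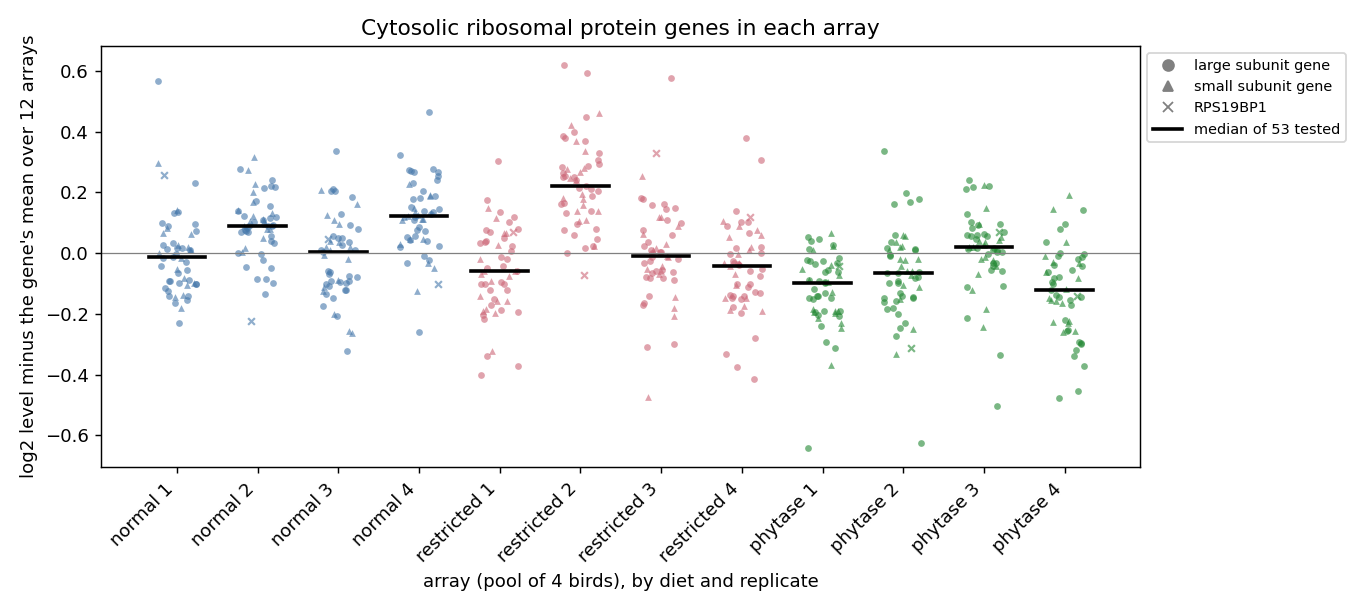
Log2 level minus the gene's own mean over 12 arrays (vertical axis) for each of the 53 genes in each array (horizontal axis, coloured by diet); circles are large-subunit genes, triangles small-subunit genes, crosses RPS19BP1 and bars the median of the 53. The bar of restricted replicate 2 is at 0.22 and those of phytase replicates 1 and 4 are at -0.10 and -0.12.

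The medians of the large and small subunits followed each other over the 12 arrays. In restricted replicate 2 they were 0.23 and 0.22, and in phytase replicate 4 -0.11 and -0.13. Pairs of ribosomal protein genes had a median correlation of 0.43 over the 12 arrays, and 88.2% of the 1378 pairs were above 0. All points share the same 12 RNA pools and the same normalization. With restricted replicate 2 left out the median was 0.32, and with the diet means removed 0.42. For pairs of the other clusters of like brightness it was 0.04, for the 57 mitochondrial ribosomal proteins 0.16, and for pairs of a large-subunit and a small-subunit gene 0.45.

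RPL10A, RPS4Y1, RPL7A and RPL13 followed the array median most closely, with correlations of 0.92, 0.92, 0.91 and 0.90 over 12 arrays, each being part of that median. RPS19BP1, RPL35A, RPL22L1, RPS13, RPL3L and RPL32 followed it least, at -0.10, -0.03, 0.03, 0.18, 0.18 and 0.22. RPS19BP1, the symbol that is no ribosomal protein, was lowest, but little below RPL35A and RPL22L1. It was also among the dimmest of the genes, with diet means of 4.77 ± 0.21, 4.88 ± 0.17 and 4.66 ± 0.16 in normal, restricted and phytase muscle (SD, n = 4). Among 7901 other genes with a single symbol, the 8 whose values were most like the array median were MRPL28, a mitochondrial ribosomal protein, at 0.94, DAD1, a subunit of the oligosaccharyltransferase, at 0.87, EIF3I, a subunit of initiation factor eIF3, at 0.87, AKR1A1 at 0.85, GGA1 at 0.85, INSR, the insulin receptor, at 0.84, NUTF2 at 0.83 and GBF1 at 0.82. These are the highest of many correlations, all over the same 12 RNA pools, and restricted replicate 2 enters each of them.

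Several ribosomal proteins have a paralog on the array. RPL3L is known from mammals as a form of RPL3 found in striated muscle. It was at 9.18, 9.16, 9.34 and 9.23 in normal muscle, at 9.33, 9.21, 9.22 and 8.93 in restricted muscle and at 9.25, 9.20, 9.43 and 9.04 with phytase. The diets overlapped, and the 3 differences were -0.06, 0.06 and 0.00 in restricted minus normal, phytase minus restricted and phytase minus normal. RPL3 and RPL3L had a correlation of -0.50 over the 12 arrays, and whether their probes share signal was not tested. In restricted replicate 1 and phytase replicate 1 RPL3 had its 2 lowest values, 7.20 and 6.96, beside 9.33 and 9.25 for RPL3L. Its highest value, 8.22 in restricted replicate 2, stood beside 9.21 for RPL3L, close to the RPL3L mean of 9.21 over the 12 arrays. RPL3L was highest in phytase replicate 3, at 9.43 beside 7.57 for RPL3, and lowest in restricted replicate 4, at 8.93 beside 7.98.

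RPL22 and its paralog RPL22L1 had a correlation of -0.30. RPL22 averaged 7.68 ± 0.20, 7.72 ± 0.11 and 7.70 ± 0.18 in normal, restricted and phytase muscle, and RPL22L1 7.31 ± 0.33, 7.23 ± 0.26 and 7.13 ± 0.38 (SD, n = 4). RPL7 and RPL7L1, a relative known for ribosome assembly, had a correlation of 0.33. RPL7 averaged 8.90 ± 0.12, 8.77 ± 0.23 and 8.71 ± 0.18, and RPL7L1 5.40 ± 0.12, 5.44 ± 0.23 and 5.26 ± 0.09 (SD, n = 4). RPL39L averaged 8.40 ± 0.17, 8.35 ± 0.20 and 8.30 ± 0.09 (SD, n = 4), and RPL39 was not among the genes. In mice the symbol names a paralog of RPL39 known from the testis. Which protein the chicken cluster stands for was not tested.

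RPL17 gave an unequal picture on its 2 transcript clusters. RPL17, a large-subunit protein around the tunnel exit, was between 8.72 and 9.24 in all arrays on its brightest cluster. The dim second cluster was at 1.81, 2.12, 1.13 and 2.40 in normal muscle, at 5.20, 4.80, 2.22 and 1.83 in restricted muscle and at 5.30, 1.60, 1.46 and 5.21 with phytase. Its 4 high values fell in exactly the 4 arrays with high HINTW, and within the restricted and the phytase diet the arrays split into 2 high and 2 low. The brightest cluster lay between 8.72 and 9.19 in those 4 arrays and between 8.96 and 9.24 in the other 8. In limma the second cluster's difference was 1.65 ± 0.93 in restricted minus normal (SE; adjusted p = 0.904) and 1.53 ± 0.93 in phytase minus normal (SE; adjusted p = 0.984). In all, 21 clusters had such a gap of more than 2 log2 units between the 4 arrays and the 8 others. Of these, 17 carried a symbol. It was HINTW, alone or with LOC100857579, for all but the second RPL17 cluster and LOC430766. Many of the clusters with both symbols had the same gap of 3.47, and whether they are separate measurements was not tested.

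**Figure D4:**
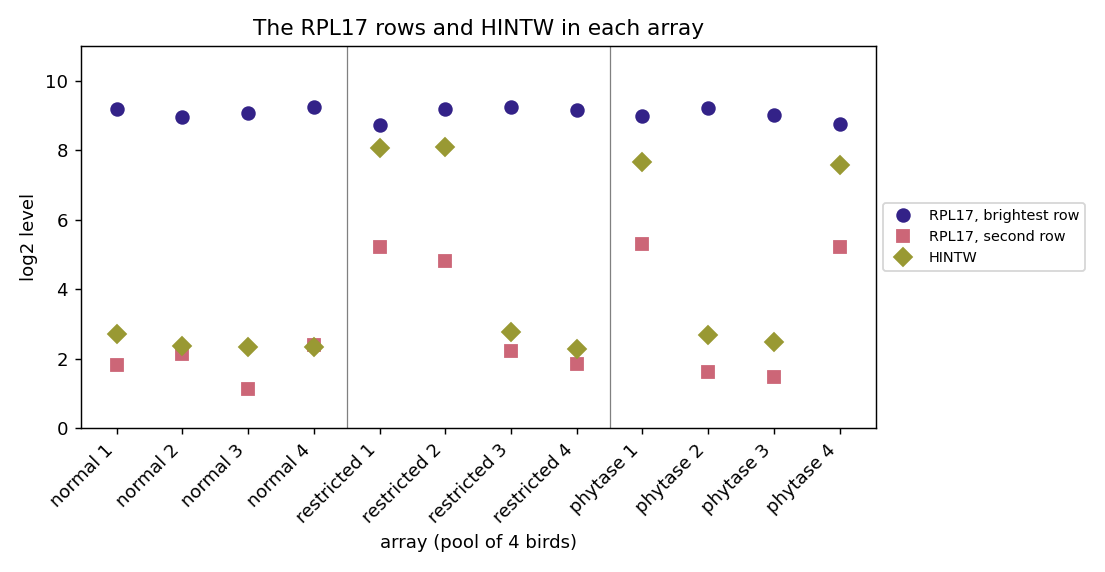
Log2 level (vertical axis) of the 2 RPL17 transcript clusters and of HINTW in each array (horizontal axis, diets parted by lines). The second RPL17 cluster is at 4.80 to 5.30 in the 4 arrays where HINTW is at 7.57 to 8.08 and at 1.13 to 2.40 in the others, while the brightest RPL17 cluster stays between 8.72 and 9.24.

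Chromosome Z, of which male birds carry a pair and females a single copy, holds 4 of the genes. RPL17, RPL37, RPS6 and RPS23 all had the lower mean in the 4 arrays with high HINTW, with a median difference of -0.20, as had 253 of the 330 Z-linked clusters tested (76.7%, median -0.13). Among the 49 other tested genes of the set, RPS19BP1 included, 29 were lower there, with a median of -0.01. RPS6, the small-subunit protein that S6 kinases phosphorylate, was at 9.56, 10.02, 9.69 and 9.62 in the 4 arrays and between 9.80 and 10.11 in the other 8. No test was made, as these 4 arrays are no group of the study. All 4 normal arrays were low in HINTW, and the values given without the 4 arrays compare only arrays that are low in it.

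Other genes with more than 1 cluster gave a check on the probes. The second clusters of RPL27A and RPL3 followed the brightest ones with correlations of 0.79 and 0.78 over 12 arrays, and those of RPL23 and RPL9 with 0.45 and 0.25. For RPL3 the second cluster's differences were 0.13, -0.13 and -0.01 in restricted minus normal, phytase minus restricted and phytase minus normal, against 0.28, -0.29 and -0.01 for the brightest. In restricted minus normal RPL9 was at -0.11 on the brightest cluster and 0.11 on the second. In phytase minus restricted RPL27A was at -0.04 on the brightest and -0.22 on the second, and RPL23 at -0.09 and -0.17. The second clusters of RPL12, RPL21 and RPL37 were too dim to be tested.

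Genes around the ribosome were described from lists. RACK1, a scaffold protein that sits on the small subunit, was at 10.36, 10.54, 10.48 and 10.46 in normal muscle, at 10.39, 10.63, 10.33 and 10.44 in restricted muscle and at 10.34, 10.34, 10.33 and 10.39 with phytase. Restricted replicate 2 was again the highest array, the phytase arrays were nearly equal, and phytase minus normal was -0.11 ± 0.08 (SE; limma adjusted p = 0.984). Of 57 tested mitochondrial ribosomal proteins, which serve the separate ribosome of that organelle, 41 were lower in restricted minus normal, 37 in phytase minus restricted and 51 in phytase minus normal, with medians of -0.11, -0.05 and -0.14. Leaving out single arrays, the first median ran from -0.11 without normal replicate 2 to -0.05 without normal replicate 4. The second ran from -0.11 without restricted replicate 4 to -0.02 without restricted replicate 3. Without the 4 arrays with high HINTW, 46, 34 and 49 were lower, with medians of -0.12, -0.04 and -0.15. The 2 with the smallest p in phytase minus normal were MRPL2 and MRPL50, at -0.30 and -0.37 (limma adjusted p = 0.984 for both).

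Ribosome assembly factors are proteins that process and fold the particles in the nucleolus but leave before translation, and 51 of 70 listed were tested. In restricted minus normal 38 were lower and 13 higher (median -0.06), in phytase minus restricted 12 were lower and 39 higher (median 0.11), and in phytase minus normal 26 were lower and 24 higher (median 0.00). Among all clusters 50.9%, 51.2% and 49.9% were lower. Leaving out single arrays put the first median between -0.12, without normal replicate 2, and -0.08, and the second between 0.06, without phytase replicate 2, and 0.16. Without restricted replicate 2, phytase minus restricted gave 15 lower and 36 higher, and without the 4 arrays with high HINTW 15 lower and 35 higher. The 2 with the smallest p in that contrast were GTPBP4 and GNL3, at 0.30 ± 0.13 and 0.29 ± 0.13 (SE; limma adjusted p = 0.530 and 0.556). In restricted minus normal PNO1 and NMD3, which act in maturation of the small subunit and export of the large one, were at -0.48 and -0.42 (limma adjusted p = 0.904 for both).

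The remaining lists were counted in the same way. Of 16 tested genes for translation factors and related oligopyrimidine messages, 10 were lower in restricted minus normal, 9 in phytase minus restricted and 7 in phytase minus normal, with NAP1L1 at 0.61 ± 0.24 in phytase minus restricted (SE; limma adjusted p = 0.523) and BTF3 at -0.48 ± 0.19 in phytase minus normal (SE; limma adjusted p = 0.984). Without restricted replicate 2, 5 of the 16 were lower in phytase minus restricted, and without the 4 arrays with high HINTW 4 were. Of 15 genes for RNA polymerases I and III and their factors, 9, 5 and 5 were lower in the same 3 contrasts, with BRF1 at 0.58 ± 0.22 in phytase minus restricted (SE; limma adjusted p = 0.519). Without restricted replicate 4 the first 2 of these counts were 5 and 9, without phytase replicate 2 the last was 3, and without the 4 arrays with high HINTW it was 8. Of 20 genes of mTOR signalling to ribosomes, 11, 10 and 11 were lower. MTOR itself averaged 4.85 ± 0.11, 4.83 ± 0.26 and 4.94 ± 0.13 in normal, restricted and phytase muscle (SD, n = 4).

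**Figure D5:**
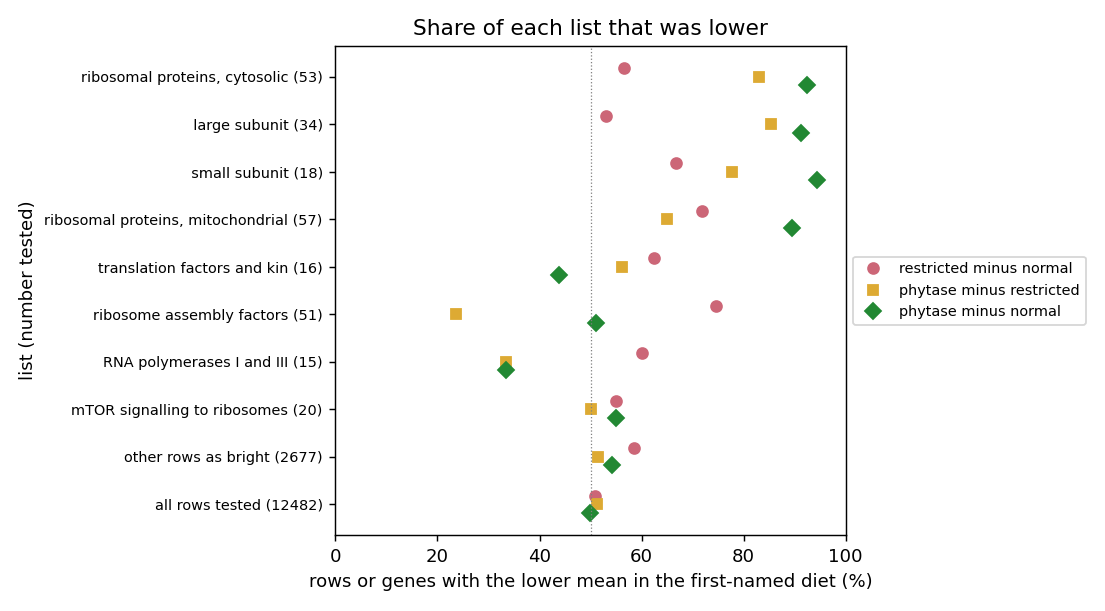
Share of each list (vertical axis, number tested in brackets) with the lower mean in the first-named diet (horizontal axis, percent), for 3 diet contrasts. The cytosolic ribosomal proteins reach 83.0% in phytase minus restricted and 92.5% in phytase minus normal, where the mitochondrial ones reach 89.5%. The ribosome assembly factors are at 23.5% in phytase minus restricted, and all clusters lie between 49.9% and 51.2%. All 12 arrays are used, and without the 4 arrays with high HINTW 27 of 53 cytosolic genes were lower in phytase minus restricted.

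Markers of other cell types were listed as well, and none of their clusters passed at an adjusted p under 0.05 in limma. The adult globins HBA1 and HBAD averaged 6.31 ± 0.25 and 7.25 ± 0.19 in normal, 7.79 ± 0.68 and 8.92 ± 0.81 in restricted and 6.49 ± 0.35 and 7.75 ± 0.56 in phytase muscle (SD, n = 4). They are the 2 tested of 6 erythroid markers on the array, whose mean level lay between 3.69 and 3.78, 4.26 and 4.87, and 3.73 and 4.12 in the 3 diets. The 8 endothelial and mural markers lay between 4.66 and 4.84 in normal, 4.65 and 4.96 in restricted and 4.82 and 5.06 in phytase muscle. The 7 slow-fibre markers lay between 5.12 and 5.50 in normal and between 4.88 and 5.49 in restricted muscle. With phytase their mean level was 6.27 in replicate 4, 5.69 in replicate 2 and 5.48 in replicate 3. In phytase replicate 1 it lay below every normal array. The mean level of the 5 adipocyte markers lay between 4.73 and 5.47, 5.23 and 5.60, and 4.96 and 5.39, and of the 4 tested all had the higher mean in restricted minus normal and the lower one in phytase minus restricted. Of 11 tested macrophage and lymphocyte markers 10 had the higher mean in the first contrast and 9 the lower one in the second, and the level of all 12 lay between 4.28 and 4.86, 4.37 and 5.43, and 4.38 and 4.82. All 7 tested markers of cycling cells had the lower mean in phytase minus restricted, and the level of all 10 on the array lay between 2.86 and 3.09, 2.92 and 3.39, and 2.86 and 2.94. The 7 fibroblast markers lay between 7.63 and 8.33, 7.61 and 8.42, and 7.87 and 8.65, and all 7 had the higher mean in phytase minus normal. Their part in the ribosomal protein differences was not tested, and in bulk muscle fewer cells of a type and less RNA per cell cannot be told apart.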

How the data were processed

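The deposited values are 1 log2 level per transcript cluster and array. Per the submitters' processing notes, the tools were Affymetrix Expression Console and GCRMA (no version, role or order given). No source used here names the logarithm's base, and base 2 was inferred from the range of the values. GCRMA corrects background by probe sequence, which leaves dim levels imprecise. Per the labels' protocols, 100 ng of total RNA was labelled.

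Groups came from the sample titles. Normal replicate 1 lists no diet among its characteristics, and its source name gives the normal diet. Those 12482 of 20804 clusters whose mean reached the 40th percentile were fitted in limma 3.58.1 (R 4.3.3) with 1 mean per diet over all 12 arrays and an intensity trend, and p-values were adjusted by Benjamini-Hochberg over all 12482 in each contrast and for the F test. The fit was tested on simulated data. Clusters of like brightness are those between the 5th and 95th percentile of the ribosomal proteins' means. As a set they are dimmer than the ribosomal proteins. Named are the 8 genes with the smallest p per contrast, paralogs and their partners, RPLP1, RPS6, RPS27A, RPS19BP1, Z-linked genes, extremes of mean and SD, the 8 other genes most like the array median and, of each other list described, up to 2 genes with the smallest p. RPL7A, RPL32, RPL35A, RACK1 and MTOR, genes with more than 1 cluster, the genes with higher means, and those without overlap were also named, after their values were seen. Members and lists were chosen with earlier results of these data known. The alternatives tried were 2 filters, 2 normalizations, no intensity trend, array weights, an offset of 16, the median over a gene's clusters, a replicate block, each array left out, and the 4 arrays with high HINTW left out. Same-numbered arrays of different diets deviated with correlations of -0.16 to 0.18, 3 of 12 above 0.1, so the numbers were not taken as pairs.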

Additional observations from a re-analysis of the deposited data

Results flagged for a closer look

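In 87 groups of 4 arrays, 5 had 1 array further from the others than the 95% limit of Dixon's test, and chance alone gives about 1 in 20. RPS27A was at 7.50 in restricted replicate 2 against 6.94 to 6.95 in the other restricted arrays. RPS6 was at 9.56 in restricted replicate 1 against 9.97 to 10.02, and RPL22L1 at 6.85 in the same array against 7.32 to 7.40. RPLP1 was at 9.74 in phytase replicate 3 against 9.51 to 9.54. The median deviation of the 53 tested genes was 0.22 in restricted replicate 2, and the next restricted array was at -0.01.

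The second RPL17 cluster, which is not among the 53 genes counted as ribosomal proteins, reached 5.30 in phytase replicate 1, against at most 2.40 in the normal arrays.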

How the results depend on the processing

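With 4 pools per diet, precision was limited by the number of arrays. No setting called any of the clusters at an adjusted p under 0.05. Of the recomputed summary values 34 moved by more than the spread between arrays or, for counts, by over 1.5 times, and 226 did not. Leaving out single arrays put the median difference between -0.08 and 0.01 in restricted minus normal, -0.15 and -0.05 in phytase minus restricted, and -0.14 and -0.10 in phytase minus normal, with 23 to 40, 36 to 46 and 47 to 52 of 53 genes lower. The first median, though within that spread, turned to 0.01 with array weights, without normal replicate 4 and without restricted replicate 1. Counts at an unadjusted p under 0.05 moved the most. In restricted minus normal, 0 became 0 to 3 without single arrays (3 without restricted replicate 2) and 3 without the 4 arrays with high HINTW. In phytase minus restricted, 2 became 7 with quantile normalization, 6 with array weights, 1 each with median centring, no intensity trend, the offset and the 4 arrays left out, and 0 to 6 without single arrays (0 without restricted replicate 2, 6 without restricted replicate 4); 27 genes were lower without the 4 arrays. In phytase minus normal, 4 became 2 with no trend, 7 with weights, 0 without the 4 arrays and 0 to 6 without single arrays (0 without normal replicate 4, 6 without normal replicate 1 or phytase replicate 3). Across the diets, 1 became 4 with quantile normalization, 2 with weights, 0 with centring or no trend, and 0 to 3 without single arrays. With the replicate block the counts were 1 in phytase minus restricted and 2 across the diets, and no other result moved. Of 61 values of single genes, 21 changed sign in at least 1 of 18 settings, none of them larger than 0.13. The cause of these moves was not tested.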
